A study of Mus musculus with 3 samples.

Results

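The cytoplasmic ribosomal protein genes encode the protein part of the machine that translates mRNA, and 83 of them were measured here among 55536 annotated genes in RNA bound to the chromatin of stimulated mouse macrophages. They were chosen by name, as genes with at least 1 protein_coding transcript and a symbol of the form Rpl, Rps, Rplp or Rpsa followed where needed by a number, leaving out the Rps6k kinases. Of these, 46 encode proteins of the large (60S) subunit and 31 encode proteins of the small (40S) subunit. The other 6 are paralogs of such genes (Rpl3l, Rpl7l1, Rpl10l, Rpl22l1, Rpl39l and Rps27l). They lie on 19 chromosomes, with 14 of them on chromosome 7 and 4 on the X chromosome.

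The libraries came from bone-marrow-derived macrophages of C57BL/6J mice that had received 100 ng/ml lipid A for 50 min; lipid A is the membrane anchor of lipopolysaccharide and the ligand of Toll-like receptor 4. RNA was taken from the chromatin fraction, which holds nascent and retained transcripts, and was sequenced after removal of ribosomal RNA. All 3 libraries belong to this 1 group and carry 1 donor code, and they started from 1000, 250 and 500 ng of RNA in replicates 1, 2 and 3. The labels give no sex or age, and nothing in them says whether the replicates are separate cultures. No untreated or non-chromatin sample was analysed here, so the values describe 1 condition, and no effect of lipid A on these genes was tested.

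Each ribosome needs one copy of nearly every one of these proteins, so their genes are among the most coordinated in the cell. Their mRNAs begin with a run of pyrimidines, the 5′ terminal oligopyrimidine tract, through which Larp1 and the mTOR pathway set their translation. Many of the genes are short, and several carry small nucleolar RNAs (snoRNAs) in their introns, which are cut out of the spliced intron and guide modification of ribosomal RNA. Free Rpl5 and Rpl11, held together with 5S ribosomal RNA, also bind Mdm2 and so link ribosome assembly to p53.

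Gene-level counts summed to 10496703, 17687379 and 14806118 in replicates 1, 2 and 3. All 10 macrophage markers on a fixed list were detected, led by Mrc1 at 178.7 ± 12.5 TPM (TPM is a read level scaled to the library and divided by transcript length; SD, n = 3). Of 25 markers of T cells, B cells, neutrophils, fibroblasts and erythroid cells, only Cd4 (1.52 TPM) and Alas2 (2.21 TPM) had at least 10 counts in each library. The fibroblast markers Col1a1, Col1a2 and Col3a1 had 0, 1 and 0 counts in replicate 1, but 28, 25 and 19 in replicate 2 and 21, 14 and 12 in replicate 3, all under 1 TPM. The nuclear RNAs Malat1 and Neat1 averaged 18681 ± 8996 and 1775 ± 258 TPM (SD, n = 3).

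The ribosomal protein genes together took 10714, 18057 and 12235 counts, or 0.102%, 0.102% and 0.0826% of the gene-level counts of replicates 1, 2 and 3. As a share of TPM they came to 0.114%, 0.112% and 0.114%. Detection was set at 10 expected counts in each library, and 78 of the 83 genes (94.0%) passed it, against 43.9% of all 22028 protein-coding genes. The median over the 83 genes was 11.9 TPM, against 4.81 TPM for the 9587 other detected protein-coding genes. The median ribosomal protein gene lay above 69.5% of the detected protein-coding genes. The top one, Rpl23, ranked 501 among protein-coding genes. The main coding isoform had a median length of 814.5 bases in the detected ribosomal protein genes, against 2966 in the other detected protein-coding genes. By counts, which are not divided by length, 45 of 79 genes with a mean of at least 10 counts had at least 100. In other protein-coding genes it was 5992 of 10243, so by counts the share was not higher in ribosomal protein genes.

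The large-subunit genes had a median of 14.4 TPM and ran from 2.55 to 77.7 TPM in mean level, and the small-subunit genes had a median of 10.3 TPM and ran from 2.29 to 28.2 TPM. Both subunits began at about the same level, and the large one reached higher. In the separate libraries the log2 difference of the medians, large minus small, was 0.16, 0.33 and 0.44 in replicates 1, 2 and 3, always above 0. With counts divided by full transcript length in place of TPM the difference was 0.11, so its size depended on the length correction. The 78 nuclear genes of the mitochondrial ribosome, a list chosen after the data were seen, had a median of 1.28 TPM, and 47 of them were detected.

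Rpl23, a protein of the large subunit, had the highest level, with 73.2, 75.4 and 84.5 TPM in replicates 1, 2 and 3. Rpl10, which joins the large subunit late in its assembly, followed with 60.6, 65.0 and 55.2 TPM. Neither gene's range overlapped with the other's, or with that of any gene below them. This order belongs to the first of the 2 deposited quantifications, on which all levels here rest unless the second is named. Next came Rpl5 with 35.8, 28.1 and 28.1 TPM, then Rpl27a with 28.4, 29.6 and 32.0 TPM. Rps9, the leading small-subunit gene, had 29.3, 28.0 and 27.4 TPM, and Rpl4 had 27.0, 26.0 and 26.0 TPM. Rpl34 had 25.4, 21.9 and 28.1 TPM and Rpl9 had 22.3, 26.5 and 25.2 TPM. The ranges of Rpl5, Rpl27a and Rps9 overlapped one another, as did those of Rpl4, Rpl34 and Rpl9, and the order within each of these sets was not separable from the spread between libraries. Rps9 and Rpl4, neighbours in the order, did not overlap. The range of Rpl34 also overlapped with those of Rps9 and Rpl5, so the sets themselves were not fully separable from each other. In all, 44 of the 83 genes averaged at least 10 TPM and 15 averaged at least 20 TPM.

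At the low end, 11 detected genes averaged under 5 TPM. Rps16 had 1.62, 2.61 and 2.65 TPM on 17, 37 and 26 counts, and Rpl36a had 3.17, 1.80 and 2.67 TPM on 18, 15 and 15 counts. The highest and the lowest detected gene differed 33.9-fold in mean level. These low genes rest on few reads, and at such counts a difference between libraries is hard to see. One standard subunit gene, Rpl38, missed the detection limit with 6.41, 25 and 8.76 counts.

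**Figure D1:**
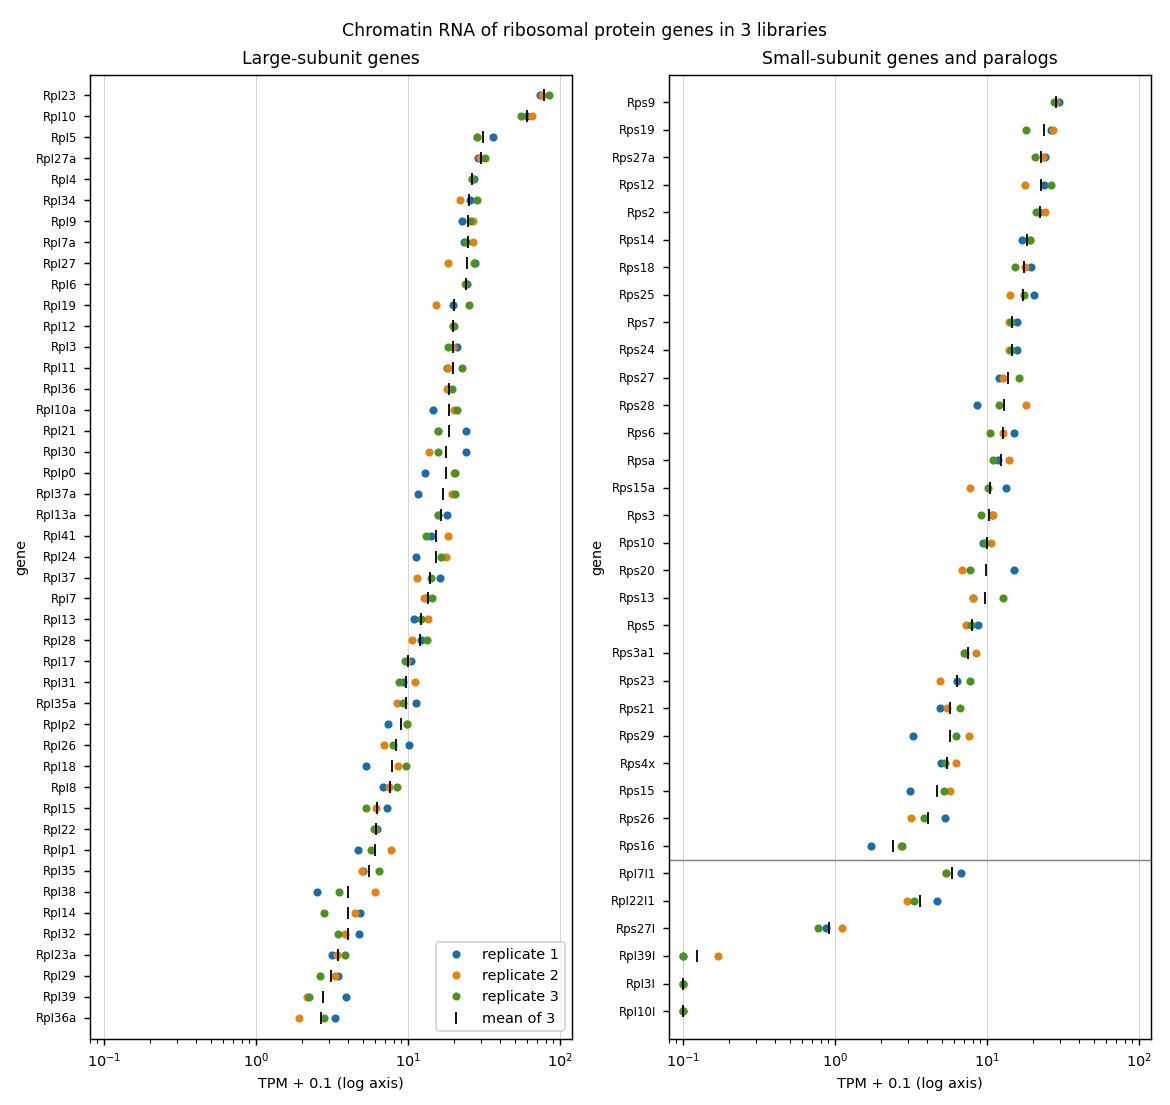
Level of 79 of the 83 ribosomal protein genes in 3 chromatin RNA libraries (TPM + 0.1, log axis). Points are libraries and the black tick is their mean, with genes in order of mean level and the 6 paralogs under the grey line. Rpl23 and Rpl10 stand above the other genes in every library, and Rpl10l and Rpl3l are at 0.

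The paralogs were lower than the standard genes they resemble. Rpl10l, known as a testis form, and Rpl3l, known from heart and skeletal muscle, were at 0 counts in all 3 libraries, which allows up to 3 counts in each by counting error alone, and averaged 0.03 and 0.07 TPM in the second quantification. Their standard partners, Rpl10 and Rpl3, averaged 60.2 ± 4.91 and 19.6 ± 1.36 TPM (SD, n = 3). Rpl39l, another testis form, had 1 count in replicate 2 and none in the other libraries, where Rpl39 averaged 2.66 ± 0.99 TPM. Rps27l, a p53 target, had 3, 7 and 3 counts and 0.81 ± 0.17 TPM, against 13.5 ± 2.34 TPM for Rps27. In the second quantification Rps27l was higher, with a mean of 7.30 TPM. Of the paralogs, only Rpl7l1 and Rpl22l1 were detected in the first, at 5.73 ± 0.80 and 3.53 ± 0.89 TPM. Rpl7 averaged 13.3 ± 0.80 TPM and Rpl22 5.98 ± 0.14 TPM there (SD, n = 3). In the first quantification the ranges of each of these pairs did not overlap.

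Most of this RNA was assigned to isoforms other than the protein_coding ones. The annotation sorts transcripts into classes, and a retained_intron isoform is one that keeps sequence which the coding isoform splices out. Among the 71 detected genes with more than 1 class, 55 (77.5%) had over 50% of their TPM outside protein_coding isoforms, against 46.7% of the 8071 detected protein-coding genes with more than 1 class. In 50 of them this held in each library, and 11 genes had over 50% in protein_coding isoforms in each library. The isoform with the highest TPM was a retained_intron one in 42 of the 78 detected genes, against 25% of detected protein-coding genes, and a protein_coding one in 26, against 65.8%. It was a processed_transcript (a noncoding class) in 9 and a target of nonsense-mediated decay in 1.

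Retained-intron isoforms were annotated for 63 of the 78 detected genes and held a median of 61.5% of their TPM. The other 6116 detected protein-coding genes with such an isoform had a median of 41.4%. By library the medians were 67.8%, 62.8% and 59.4% in ribosomal protein genes, against 45.9%, 39.6% and 38.6% in the other genes. Retained-intron isoforms took over 50% of the TPM in 45 of the 63 genes (71.4%), against 37.4% of the others, and 36 of the 63 passed that mark in each library. Detected ribosomal protein genes span a median of 3266 bases, against 27011 for the other detected protein-coding genes. The part of this in the shares was not tested. Ribosomal protein genes also have more such isoforms in the annotation, with a median of 2 per gene against 1. Among genes with 1 annotated retained-intron isoform the median was 34.3% in 12 ribosomal protein genes, against 27.2% in 2134 others. With 2 it was 63.4% in 22 genes, against 40.9% in 1519 others. With 3 or more it was 71.3% in 29 genes, against 52.0% in 2463 others. The tables hold no unspliced transcript, so a read from an intron of pre-mRNA can be assigned only to an isoform that covers it, and nascent and retained introns cannot be told apart. In the second quantification the medians were closer, at 55.4% in ribosomal protein genes and 42.3% in the others for retained-intron isoforms, and 34.1% and 39.8% for protein_coding isoforms.

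**Figure D2:**
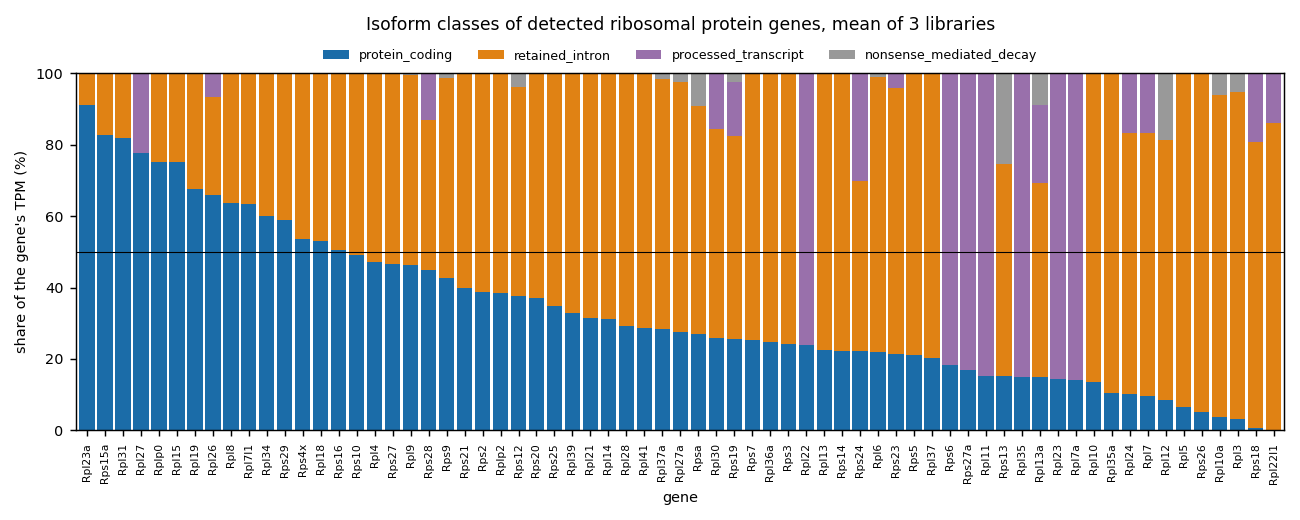
Share of each gene's TPM by annotated isoform class (percent, mean of 3 libraries) for 67 of the 71 detected ribosomal protein genes with more than 1 class, in order of the protein_coding share. The line marks 50%, and 52 of the 67 genes shown have a protein_coding share below it.

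Rpl10, with 11 annotated isoforms, shows the pattern in single transcripts. Its retained-intron isoform Rpl10-208 had 21.4, 28.1 and 17.2 TPM, against 2.28, 7.37 and 6.41 TPM for the coding isoform Rpl10-201. Rpl10-208 keeps the intron at chrX:74271719-74271799 (81 bases, GRCm38, plus strand). Over the whole gene, retained-intron isoforms held 90.5%, 83.7% and 85.3% of its TPM in replicates 1, 2 and 3. In Rpl10a, Rpl10a-206 had 4.95, 10.4 and 10.6 TPM, against 0.69, 0.57 and 0 TPM for Rpl10a-201, and keeps the intron at chr17:28329048-28329373 (326 bases, plus strand). Rpl4 was more even, with 10.4, 9.01 and 9.38 TPM in Rpl4-203, against 12.1, 12.4 and 12.7 TPM in Rpl4-201. Rpl4-203 keeps the intron at chr9:64175301-64175583 (283 bases, plus strand). The sequences below show what tells these isoforms apart, as the 20 bases on each side of the joined exons and of the intron's 5′ end, with intron bases in capitals and all introns starting with GT:
Rpl10 spliced: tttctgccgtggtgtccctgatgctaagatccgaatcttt
Rpl10 kept: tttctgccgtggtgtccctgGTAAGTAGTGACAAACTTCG
Rpl10a spliced: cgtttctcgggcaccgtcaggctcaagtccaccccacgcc
Rpl10a kept: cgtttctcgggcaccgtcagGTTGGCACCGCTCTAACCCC
Rpl4 spliced: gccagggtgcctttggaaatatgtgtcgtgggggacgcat
Rpl4 kept: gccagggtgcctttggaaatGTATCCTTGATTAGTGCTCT

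An intron kept from end to end was not the rule. Of the 64 ribosomal protein genes with an annotated retained-intron isoform, the highest such isoform kept at least 1 whole intron of the main coding isoform in 26. In the other 38 it kept no whole intron: it held part of 1 intron in 32 genes, as in Rps9-206, parts of 2 introns in 4, and no intron of that coding isoform in 2, as in Rpl5-205. For these genes the class name does not stand for one full intron.

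The genes with the largest noncoding shares included Rpl22l1, Rps18, Rpl3, Rpl10a and Rps26. Rpl22l1 had no TPM in protein_coding isoforms in any library, although its gene had 69, 69 and 41 counts. Rpl3, which builds the peptidyl transferase region of the large subunit, had 1.4%, 6.1% and 2.0% of its TPM in protein_coding isoforms, and Rps18 had 1.8%, 0% and 0%. The processed_transcript class held over 50% of the TPM in 8 genes, among them Rpl23 with 88.5%, 75.4% and 92.7%, Rpl7a with a mean of 85.8% and Rpl11 with a mean of 84.8%.

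At the coding end stood Rpl23a, Rps15a and Rpl31. Rps15a had 81.0%, 85.1% and 81.9% of its TPM in protein_coding isoforms. Rpl31 had 89.6%, 68.2% and 88.1%. Rpl23a had 100%, 83.9% and 89.4%, on 14.4, 27.6 and 20.5 counts. Counted over protein_coding isoforms alone, the 83 genes had a median of 3.36 TPM, against 2.50 TPM for the other detected protein-coding genes.

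Genes that work with ribosomal proteins gave a range of retained-intron shares. The 14 other terminal-oligopyrimidine genes with such an isoform had a median of 63.8%. They were led in level by Vim at 613 ± 83.1 TPM and Pabpc1 at 173.1 ± 52.5 TPM (SD, n = 3). They include the noncoding RNAs Gas5, Snhg1 and Snhg8, which had 0% in protein_coding isoforms. The retained-intron shares of these noncoding RNAs were 90.9%, 91.8% and 74.1%, all above the list's median. The 29 ribosome biogenesis genes had 39.0%, with Sbds (74.6 ± 15.6 TPM) and Gnl3 (30.4 ± 7.30 TPM) highest in level. The 30 mitochondrial ribosomal protein genes had 53.9%, and their libraries spread from 43.0% to 64.2%. Of the 4 ribosomal proteins that the naming rule misses, Rack1 (21.3 ± 0.80 TPM) and Fau (11.8 ± 2.01 TPM) were highest, and the 3 detected ones had a median share of 26.0%. Translation elongation factors were led by Eef1a1 at 282.8 ± 4.21 TPM and Eef2 at 36.3 ± 1.86 TPM (SD, n = 3). Among 15 regulators of ribosome production 14 were detected, with Mdm2 at 578.3 ± 49.3 TPM and Rptor, an mTOR partner, at 33.1 ± 8.17 TPM.

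**Figure D3:**
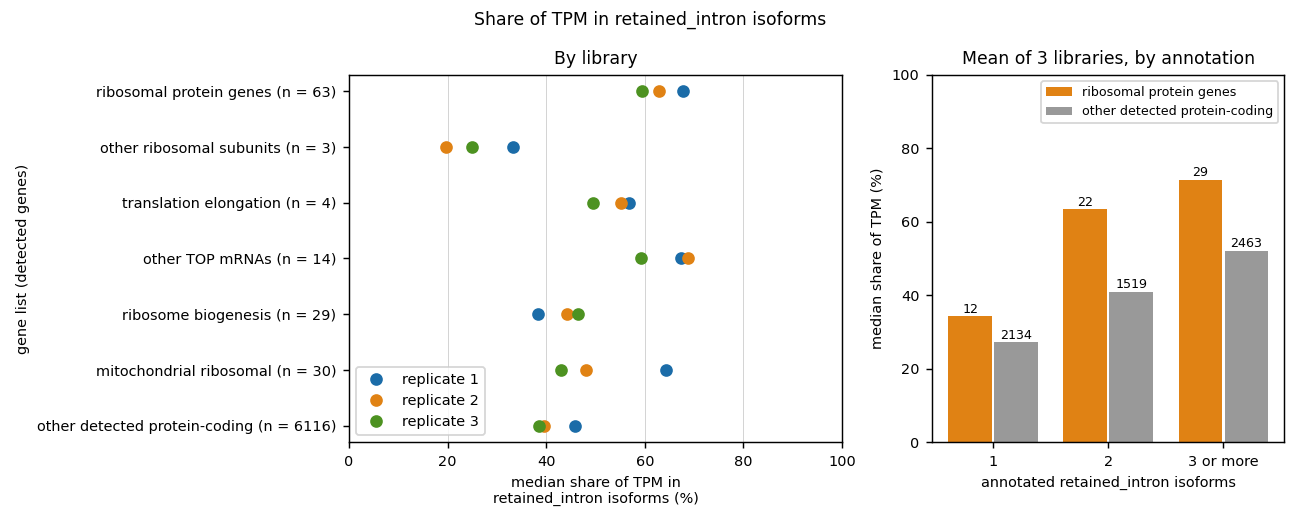
Median share of TPM in retained_intron isoforms (percent). Left, each library for 7 gene lists, with n detected genes that have such an isoform. Right, mean of 3 libraries by the number of annotated retained_intron isoforms, with the number of genes over each bar, where the ribosomal protein genes are above the other genes in each of the 3 bins.

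Many ribosomal protein genes hold snoRNA genes. On the same strand and inside the gene, 58 snoRNA genes were annotated in 30 of the 83 genes, all 30 of them detected (38.5% of the 78), against 2.05% of detected protein-coding genes. Of the 58, 57 lie in an intron of every coding isoform that spans them, a count that would include any spanned by none. Rpl4 holds 5, Rpl13a (Snord32a, Snord33, Snord34 and Snord35a) holds 4, and Rpl17 and Rpl23a are among those with 3, while 15 genes hold 1. The 30 host genes had a median of 13.0 TPM and the 53 with no snoRNA 9.77 TPM. The 53 include all 5 undetected genes, and the 48 detected ones had a median of 12.2 TPM, close to that of the hosts. By library, the log2 difference of the medians, hosts minus all 53 others, was 0.61, 0.36 and 0.47.

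How many of these snoRNAs were counted depended on the quantification. In the first, 40 of the 58 had 0 counts in each library, and 5 were detected. All 36 of at most 110 bases were at 0, and the first quantification gives each of these 36 an effective length of 0 in all 3 libraries, so it could assign them no reads. In the second, 51 of the 58 had counts and 31 were detected, and of the 36 short ones 29 had counts and 19 were detected. Snord21 in Rpl5, a box C/D snoRNA of 94 bases, had 990, 837 and 584 counts in the second quantification, against 0 in the first. Snord32a in Rpl13a had 71, 198 and 116 counts and Snord83b in Rpl3 had 52, 255 and 107 counts in the second. The zeros of the short snoRNAs in the first quantification therefore say nothing about their presence in the libraries. All 3 libraries had a size range of 250 to 400 bases, and how far this limits RNAs of at most 110 bases was not tested. Reads at these snoRNA genes may come from the snoRNA or from the host's intron, so detection here means counts at the gene.

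Snord15b led in both quantifications, and Snord15a came next in the first. Both lie in Rps3, which shapes the mRNA entry site of the small subunit. In the second, Snord15a had 845, 1604 and 770 counts. Snord21 was above it in replicate 1, with 990 counts, and below it in replicates 2 and 3. Snord15b, in an intron at chr7:99479563-99479707 (minus strand, GRCm38), had 4311, 4709 and 2493 counts in replicates 1, 2 and 3 in the first quantification. Snord15a, at chr7:99482785-99482932, had 708, 1346 and 638 counts. Both are box C/D snoRNAs, the kind that guides 2′-O-methylation. Their sequences are shown because they had the most counts of these snoRNA genes in the first quantification. The box C core TGATGA and the box D CTGA are in capitals:
Snord15b: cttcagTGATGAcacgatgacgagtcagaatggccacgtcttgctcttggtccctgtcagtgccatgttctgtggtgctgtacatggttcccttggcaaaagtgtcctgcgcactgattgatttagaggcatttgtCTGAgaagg
Snord15a: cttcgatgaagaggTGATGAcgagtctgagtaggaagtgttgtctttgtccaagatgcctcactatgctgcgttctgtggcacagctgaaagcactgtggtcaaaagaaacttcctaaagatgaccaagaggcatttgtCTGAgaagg

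Rps3 itself had 10.7, 10.7 and 8.99 TPM. Its retained-intron isoform Rps3-204 contains Snord15b and held 55.5%, 61.7% and 66.0% of the gene's TPM, while no Rps3 isoform contains Snord15a. A read in Snord15b can come from the snoRNA or from that isoform. In either snoRNA a read can also come from unspliced pre-mRNA of Rps3, which has no transcript of its own in the quantification. Rps3-204 was assigned 232, 500 and 301 counts over its 3183 bases. Snord15b was assigned 4311, 4709 and 2493 counts over 145 bases. The origin of the single reads was not tested. Gm26448, a snoRNA gene in Rpsa, had 375, 593 and 285 counts. Snora70 in Rpl10 had 34.4, 57.3 and 20.5 counts. In all, 26 snoRNA genes in 22 host genes lie inside an exon of some isoform. The highest share was in Rps13, where the isoforms containing Snord14a held 74.1% of its TPM.

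**Figure D4:**
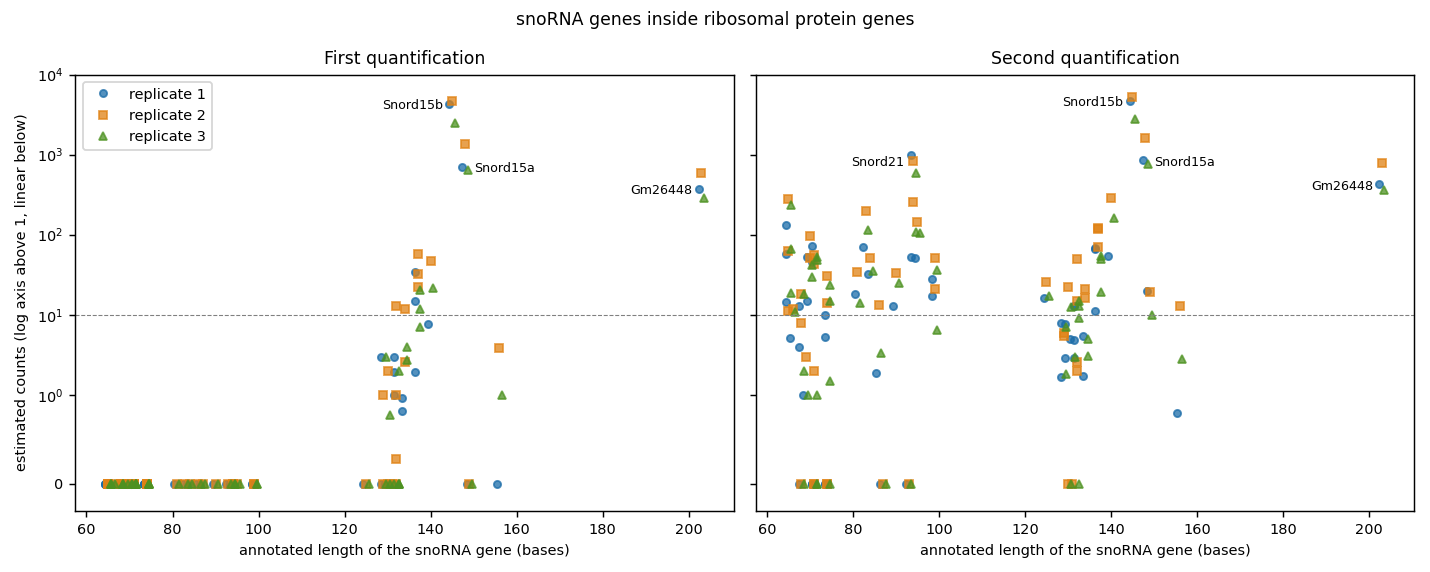
Estimated counts in the first (left) and second (right) quantification (log axis above 1, linear below) against annotated length in bases for snoRNA genes inside ribosomal protein genes, 1 point per library. The dashed line is 10 counts. In the first, the snoRNAs of at most 110 bases are at 0; in the second many have counts, and Snord21 joins Snord15b, Snord15a and Gm26448 above 200 counts in each library.

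The 3 libraries ranked the genes alike, with Spearman correlations of TPM over the 83 genes of 0.90 (replicates 1 and 2), 0.93 (1 and 3) and 0.95 (2 and 3), as a description across genes. On counts scaled to library size by edgeR's TMM method (CPM), with 0.5 counts added, the highest library was at least 1.5 times the lowest in 30 of 79 genes (38%) with a mean of at least 10 counts, against 52.7% of all such genes. With a mean of at least 100 counts it was 12 of 45 (26.7%), against 42.8% of all such genes. A 2-fold difference was found in 8 of the 79 genes, against 22.2% of all genes with a mean of at least 10 counts. These counts describe 3 libraries of 1 group, and no test between libraries was made, since 3 values allow no p below 0.25 in a 2-sided exact sign-flip test.

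Where libraries differed in TMM-scaled CPM, replicate 2 was usually highest. Of the 79 genes, 61 were highest in replicate 2, against 32.8% of all genes with a mean of at least 10 counts, 13 in replicate 1 and 5 in replicate 3, while 42 were lowest in replicate 1 and 33 in replicate 3. The median of log2 CPM minus the mean of the 3 libraries was -0.13, 0.25 and -0.11 in replicates 1, 2 and 3, against -0.05, 0.04 and 0.03 for the other detected protein-coding genes. Some other lists had shifts of like size: -0.19, 0.33 and -0.16 in the 4 ribosomal proteins outside the naming rule, -0.08, 0.24 and -0.13 in translation elongation factors, and -0.26, 0.21 and -0.03 in macrophage markers. The replicate 2 value was smaller in other terminal-oligopyrimidine genes (0.04, 0.07 and -0.08) and mitochondrial ribosomal protein genes (0.11, 0.09 and -0.09). It was also smaller in ribosome biogenesis genes (-0.06, 0.11 and -0.06). Regulators of ribosome production had 0.19, -0.10 and -0.04, lowest in replicate 2. Scaled by library totals, the value in replicate 1 was 0.066, so its sign depends on the scaling. In TPM the medians over the 83 genes were 11.12, 10.95 and 10.85 in replicates 1, 2 and 3, with no rise in replicate 2. Replicate 2 also started from the least RNA, 250 ng, and the part of this in its higher CPM was not tested.

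The largest difference was in Rpl38, with 0.50, 1.52 and 0.65 CPM in replicates 1, 2 and 3, on few reads. Rps29 had 0.83, 2.07 and 1.30 CPM, a 2.41-fold difference on 10, 34 and 18 counts. Rplp0, the base of the stalk to which Rplp1 and Rplp2 bind, differed on far more reads, with 10.6, 24.5 and 18.9 CPM, or 2.29-fold, on 128, 402 and 263 counts. Rpl37a (2.24-fold) and Rps15 (2.14-fold) also differed over 2-fold. In all 5 of these genes replicate 1 was lowest and replicate 2 highest. The smallest differences were in Rpl37 (1.10-fold), Rpl28 (1.13-fold) and Rps12 (1.14-fold, with 19.5, 19.9 and 17.6 CPM).

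A second quantification of the same libraries, deposited beside the first, assigned more reads to genes and gave these genes higher levels. Its values were at least 1.5 times the first in 43 of the 78 detected genes (55.1%), against 54.5% of all detected genes, and at most 1/1.5 of the first in 0 of 78, against 1.06%. The median ratio, the second over the first, was 1.58 in ribosomal protein genes and 1.57 in all detected genes, so these genes shifted about as much as the whole table. Among the 78 detected genes Rpl39 differed most (7.71-fold). It had 31.2, 15.3 and 17.1 TPM in the second quantification, against 3.80, 2.07 and 2.11 TPM in the first. Rpl36 had 106, 95.1 and 107 TPM in the second, against 18.1, 18 and 19.4 TPM in the first (5.51-fold), which put it above Rpl23, at 89.5, 83.4 and 88.6 TPM in the second. Rpl36a (4.80-fold) and Rpl24 (4.05-fold) followed. Rpl10 ranked 6 in the second quantification, with 58.7, 55.5 and 44.1 TPM, and its range overlapped with those of genes above and below it. Rpl12 (0.79-fold), Rpl9 (0.82-fold), Rpl10 (0.88-fold) and Rps12 (0.90-fold) were lower in the second. Across the 78 genes the ratio had a Spearman correlation of -0.40 with effective transcript length, the length on which a fragment can start, so shorter genes tended to differ more.

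**Figure D5:**
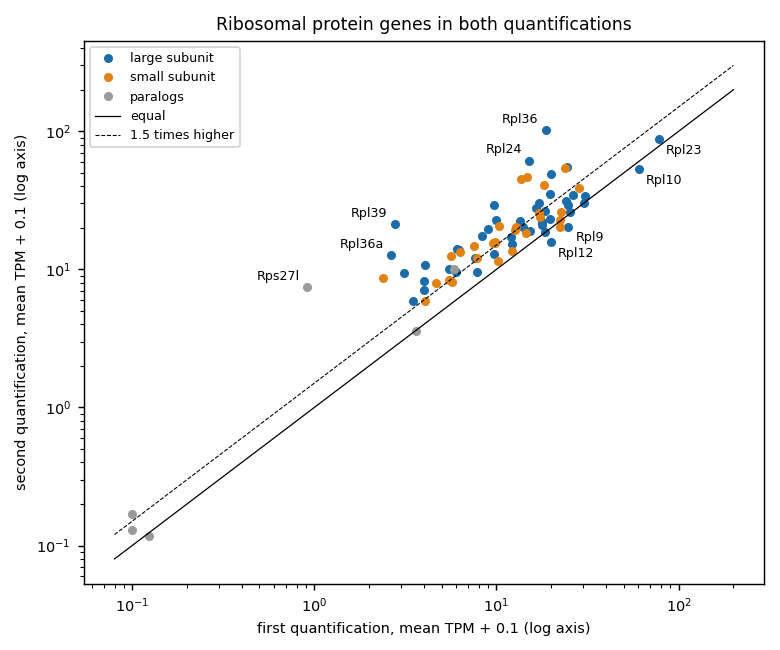
Mean TPM + 0.1 over 3 libraries in the second quantification (vertical) and in the first (horizontal), log axes, 1 point for each of 79 ribosomal protein genes. The solid line marks equal values and the dashed line 1.5 times higher, and Rpl36, Rpl24, Rpl39 and Rpl36a lie far above it.

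Ribosomal protein genes have left many processed pseudogenes, which are copies of their mRNAs inserted elsewhere in the genome. By symbol, as a gene's name followed by -ps, the annotation names 292 for 60 of the 83 genes. Any with other symbols were left out, so the values below cover the named ones only. Of the 292, 204 had 0 counts in each library. Only 11 were detected. Together the 292 took 637, 739 and 554 counts, equal to 5.95%, 4.09% and 4.53% of the counts of the ribosomal protein genes. Rpl36-ps2 led, with 73.7, 75.6 and 77.7 TPM on 114, 177.7 and 120.4 counts, against 18.1, 18 and 19.4 TPM for Rpl36. Rpl26-ps4 (18.5, 13.4 and 13.2 TPM), Rpl36a-ps4 (14.6, 5.84 and 8.88 TPM) and Rpl23a-ps2 (14.3, 5.40 and 6.83 TPM) were also detected.

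All 11 detected pseudogenes lie inside another gene, and 10 of these other genes were detected. Rpl36-ps2 lies in Abr (114.6, 97.3 and 126.4 TPM) and Rpl26-ps4 in Med15 (98.2, 79.2 and 89.8 TPM), both on the opposite strand. Reads from these genes and from the pseudogene inside them cannot be told apart in the tables. The estimated uncertainty of the gene-level counts in the first quantification was small for most ribosomal protein genes. The deposited posterior SD of the gene's count was over 10% of the mean in 3 detected genes (Rpl23a, Rpl35 and Rpl24) and under 1% in 47. This value does not cover assignment among the isoforms of a gene, or differences from the second quantification.

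A pyrimidine run near the annotated start was more frequent in these genes than in others; the terminal tract of the mRNA itself was not measured, since a run may end before the start or lie after it. RefSeq promoter windows (GRCm38.p6) were matched for 63 of the 83 genes. A run of at least 8 C or T on the gene's strand within 30 bases of the annotated start was present in 32 of 63 (50.8%), against 21% of 7655 other detected protein-coding genes and 22.3% of all 20595 promoters. The letters CCGGAAG, the core bound by ETS factors such as Gabpa, were on either strand of the window of 250 bases before to 50 bases after the start in 39.7%, against 20.3% and 11.0%. GCCATNTT, the core of the Yy1 motif, was in 19%, against 9.58% and 6.47%. TATAAA was in 9.52%, against 6.77% and 13.2%, and CACGTG, the E-box of Myc and Usf, in 7.94%, against 10.6% and 7.66%. A match describes letters and not binding.

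The 4 genes with the highest levels show that the run is not shared by all of them. The windows are 30 bases before to 30 bases from the annotated start, with a run of at least 8 pyrimidines in capitals. Rpl27a (chr7:109519165-109519224, plus strand) has a run of 20 that begins 4 bases before the start, and Rpl5 (chr5:107900498-107900557, plus strand) a run of 9 that begins 20 bases before it. Rpl23 (chr11:97782410-97782469, minus strand) and Rpl10 (chrX:74270786-74270845, plus strand) have longest runs of 6 and 4:
Rpl27a: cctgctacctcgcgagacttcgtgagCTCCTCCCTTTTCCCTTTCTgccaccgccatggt
Rpl5: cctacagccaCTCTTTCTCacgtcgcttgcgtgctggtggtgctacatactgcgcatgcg
Rpl23: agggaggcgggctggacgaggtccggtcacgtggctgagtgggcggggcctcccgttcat
Rpl10: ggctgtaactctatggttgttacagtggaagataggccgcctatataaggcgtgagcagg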

How the data were processed

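Chromatin-fraction RNA of 3 libraries was analysed as 1 group. Per the file headers, the authors deposited for each library a gene table and a transcript table with expected counts, TPM and FPKM, and a second transcript table with estimated counts and TPM. Replicates were not pooled. The deposited notes name mm10 and GENCODE M21. The aligner, the quantification tools and the strand setting are not given in the sources used here.

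Genes were matched to GENCODE M21 by ID, and the second table was summed by gene. Rows naming no mouse gene took 1.28%, 0.427% and 0.383% of counts in replicates 1, 2 and 3 and were left out. The authors' expected counts were made whole numbers by rounding before TMM scaling in edgeR 4.0.16 and before DESeq2 1.42.0 size factors, with R 4.3.3. The rate of false calls of a fold difference between libraries was not tested. Detection required 10 or more expected counts in all 3 libraries. Log2 levels used TPM + 0.1. With 1 group there is no comparison between conditions and no model test. Zero counts and intervals cover counting error only. The depth is 10496703 to 17687379 counts per library.

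Members and lists were chosen with earlier results of these data known. Named genes are the 8 highest and 6 lowest members, those with the largest and smallest differences between libraries, isoform classes or quantifications, the main snoRNA hosts, paralog pairs, and the 2 highest genes of each list, with 5 snoRNA and 5 pseudogene loci. Rps3, Rps13, Rpl7a, Rpl11, Rpl35, Med15 and Abr were named after their values were seen. snoRNA genes were matched by coordinates, and sequences were read from the GRCm38 genome and RefSeq tables. Alternatives were other scalings, filters, pseudocounts, FPKM, the second quantification and leaving out each replicate. A few named results are not reported here.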

Additional observations from a re-analysis of the deposited data

How the results depend on the processing

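Depth limits the low genes most, since 34 of the 79 genes with a mean of at least 10 counts had under 100. Detection of 78 genes was within 1.5 times under every alternative (78 to 80 genes). The median level of 11.9 TPM was 12.4 over detected genes only, 15.1 in FPKM, 24.4 as counts per kilobase of full length and 18.5 TPM in the second quantification, and 11.2 to 11.5 TPM without 1 replicate. The difference between subunits of 0.49 (log2, medians of each gene's mean TPM, while single libraries gave 0.16 to 0.44) was 0.11 with counts per kilobase, and 0.29 to 0.45 without 1 replicate, lowest without replicate 2. The difference between snoRNA hosts and the other genes of 0.40 was 0.21 in the second quantification. Over detected genes only, the medians were 13.0 TPM in hosts and 12.2 TPM in the others. The 30 genes that differed between libraries became 8 at 2-fold and 12 at a mean of 100 counts, and 10 to 23 without 1 replicate (14 without replicate 1 and 10 without replicate 2). The shift in replicate 1 of -0.13 was 0.066 with library totals. The retained-intron median of 61.5% was 55.4% in the second quantification (42.3% in other genes), and the protein_coding median of 29.2% was 34.1% there (39.8% in other genes) and 34.9% as a share of counts. The 43 genes that differed between quantifications became 23 at 2-fold and 20 by CPM. The 11 detected pseudogenes became 44 at 1 count and 20 in the second quantification. The 5 detected snoRNAs became 31 in the second quantification, a choice made after seeing the data, and 36 of the 58 have an effective length of 0 in the first. The cause of the other changes was not tested. The other alternatives, 30 besides those that leave out a replicate, stayed within the spread between replicates or within 1.5 times the count. No paired analysis was possible because there is 1 group.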
